A study of Mus musculus with 6 samples.

Results

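The genes described here belong to the response of cells to low oxygen and to glycolysis, the breakdown of glucose to pyruvate and lactate. A list of 36 such genes was taken: carriers of glucose and lactate, enzymes of the glycolytic chain, regulators of its flux, subunits and oxygen sensors of the hypoxia-inducible factor (HIF), and HIF target genes that lie outside glycolysis. Of the 36, 35 had a probe set with a single gene symbol on the array, 34 matched under the listed symbol and 1, Ero1l, under its current name Ero1a, and 1, Gpi1, was not analysed here. They are 35 of the 19938 genes measured, and where a gene had several probe sets the brightest over the 6 arrays stood for it.

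Total RNA of mouse skin was hybridised to an Affymetrix whole-transcript array. The animals of all groups were inbred BALB/c males aged 5 to 6 weeks. Day 1 wounds and day 4 wounds, with 2 arrays each, came from mice that had received 2 full-thickness punch wounds of 4 mm on the shaved back, through skin and subcutis down to the fascia. An 8 mm punch took each wound with the tissue around it, and intact skin, with 2 arrays, was taken with the same punch. The labels name no transgene, drug or further treatment. They call the replicates biological and do not say whether an array held 1 mouse or a pool, so the p-values measure the spread between these samples.

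Cells sense oxygen through prolyl hydroxylases, which mark the HIF alpha subunits for degradation while oxygen is present. When oxygen is scarce the alpha subunits persist, pair with a constitutive partner and bind a short core motif near their target genes, among them genes for glucose uptake, glycolytic enzymes, lactate export, acid handling and blood vessel growth. A skin wound loses its vessels and fills with neutrophils and macrophages, leukocytes that draw much of their energy from glycolysis.

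The 6 arrays had median log2 intensities of 6.89 to 6.93, and replicates correlated with r = 0.989 on day 1, 0.986 on day 4 and 0.997 in intact skin. Of 12 keratinocyte markers 0 were below the lower quartile of any array. The wound replicates differed in hair follicle markers: the median of 12 such genes, relative to intact skin, was −2.67 and −6.19 (log2) in day 1 replicates 1 and 2 and −1.53 and −5.74 in day 4 replicates 1 and 2. Day 1 replicate 2 was also above day 1 replicate 1 for 31 of the 35 hypoxia and glycolysis genes, by a median of 0.19 on the log2 scale, where 53.4% of all genes were higher in that replicate. In day 4 wounds replicate 2 was the higher one for 25 of the 35, and in intact skin for 22. The part of these sample differences in the results was not tested.

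Promoter sequences of 6 of the genes are printed first, because they span the kinds of response described below: a lactate exporter, a pair of glycolytic enzymes and a pair of HIF targets that were higher in wounds, and a listed HIF target that was lower. Each is the RefSeq window of assembly GRCm38.p6 that runs from 250 bases before to 50 bases after the annotated transcript start, written 5′ to 3′ on the strand of the gene. Capitals mark the core of the hypoxia response element, searched as ACGTG and GCGTG on both strands, so that CACGT and CACGC are the same cores read on the other strand, and CACGTG holds a core on each strand. They lie at chr11:120948817-120949116 on the plus strand (Slc16a3), chr7:46845554-46845853 on the plus strand (Ldha, its first window), chr6:124769624-124769923 on the minus strand (Eno2), chr7:138909457-138909756 on the minus strand (Bnip3), chr4:43506776-43507075 on the plus strand (Car9) and chr14:45318523-45318822 on the minus strand (Ero1a).
Slc16a3: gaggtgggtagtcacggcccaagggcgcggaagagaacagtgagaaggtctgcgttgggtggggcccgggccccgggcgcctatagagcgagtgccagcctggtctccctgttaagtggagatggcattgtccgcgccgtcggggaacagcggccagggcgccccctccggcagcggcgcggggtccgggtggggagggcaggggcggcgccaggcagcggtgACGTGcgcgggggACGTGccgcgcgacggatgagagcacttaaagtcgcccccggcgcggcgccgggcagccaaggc
Ldha: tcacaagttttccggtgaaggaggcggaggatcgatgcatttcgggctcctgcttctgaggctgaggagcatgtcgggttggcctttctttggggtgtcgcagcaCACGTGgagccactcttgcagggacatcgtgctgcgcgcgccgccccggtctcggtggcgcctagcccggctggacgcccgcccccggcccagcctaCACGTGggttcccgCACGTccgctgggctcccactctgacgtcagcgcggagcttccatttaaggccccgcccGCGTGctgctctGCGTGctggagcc
Eno2: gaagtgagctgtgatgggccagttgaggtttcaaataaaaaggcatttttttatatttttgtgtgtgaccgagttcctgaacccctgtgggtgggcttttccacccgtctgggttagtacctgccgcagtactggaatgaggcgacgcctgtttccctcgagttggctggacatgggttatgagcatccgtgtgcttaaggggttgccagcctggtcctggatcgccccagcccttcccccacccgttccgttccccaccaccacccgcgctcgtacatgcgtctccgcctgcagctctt
Bnip3: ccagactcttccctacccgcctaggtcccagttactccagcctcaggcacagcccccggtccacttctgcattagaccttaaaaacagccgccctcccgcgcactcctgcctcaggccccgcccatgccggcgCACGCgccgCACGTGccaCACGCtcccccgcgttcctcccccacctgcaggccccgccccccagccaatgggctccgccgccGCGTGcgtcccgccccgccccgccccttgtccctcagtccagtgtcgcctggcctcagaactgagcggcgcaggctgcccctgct
Car9: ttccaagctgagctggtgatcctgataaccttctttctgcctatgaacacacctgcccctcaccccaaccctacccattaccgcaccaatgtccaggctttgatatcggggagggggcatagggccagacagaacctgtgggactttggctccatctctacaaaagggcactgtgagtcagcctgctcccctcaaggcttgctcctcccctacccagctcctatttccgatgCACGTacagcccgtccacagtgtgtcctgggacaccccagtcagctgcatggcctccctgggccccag
Ero1a: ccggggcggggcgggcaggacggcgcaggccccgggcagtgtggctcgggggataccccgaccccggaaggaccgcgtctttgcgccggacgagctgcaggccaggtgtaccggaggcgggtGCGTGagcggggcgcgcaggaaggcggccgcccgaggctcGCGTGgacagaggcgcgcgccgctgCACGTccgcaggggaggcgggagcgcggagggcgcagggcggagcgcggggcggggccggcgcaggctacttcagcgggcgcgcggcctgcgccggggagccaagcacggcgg

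The first comparison asked how these genes stood in wounds 1 day after injury. Most were higher than in intact skin: 28 of the 35 rose, 2 fell and 5 did not pass the test (limma, Benjamini-Hochberg adjusted p under 0.05 over all 19938 genes). Over all genes 14.7% rose and 14.6% fell. Of those that rose, 15 were at least 2-fold higher, as were 4.83% of all genes. The median change of the 35 was 0.93 on the log2 scale, against −0.04 for all genes. Both day 1 arrays were above both intact arrays for 30 of the 35, where this held for 29% of all genes, and below both for 3, where this held for 38.2%.

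On day 4 most of the genes were again higher than in intact skin. Of the 35, 23 rose against intact skin, 2 fell and 10 did not pass, where 14.8% of all genes rose and 12.1% fell. Of those that rose, 8 were at least 2-fold higher, as were 3.78% of all genes. The median change was 0.58 (log2), against −0.03 for all genes. Both day 4 arrays were above both intact arrays for 30 of the 35, against 30% of all genes, and below both for 4, against 36%. The count of genes that rose is sensitive to single arrays on day 4: it was 14 without day 4 replicate 2 and 13 without intact replicate 1. In biopsies of whole tissue, more cells of a type and more RNA of a gene per cell cannot be told apart.

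**Figure D1:**
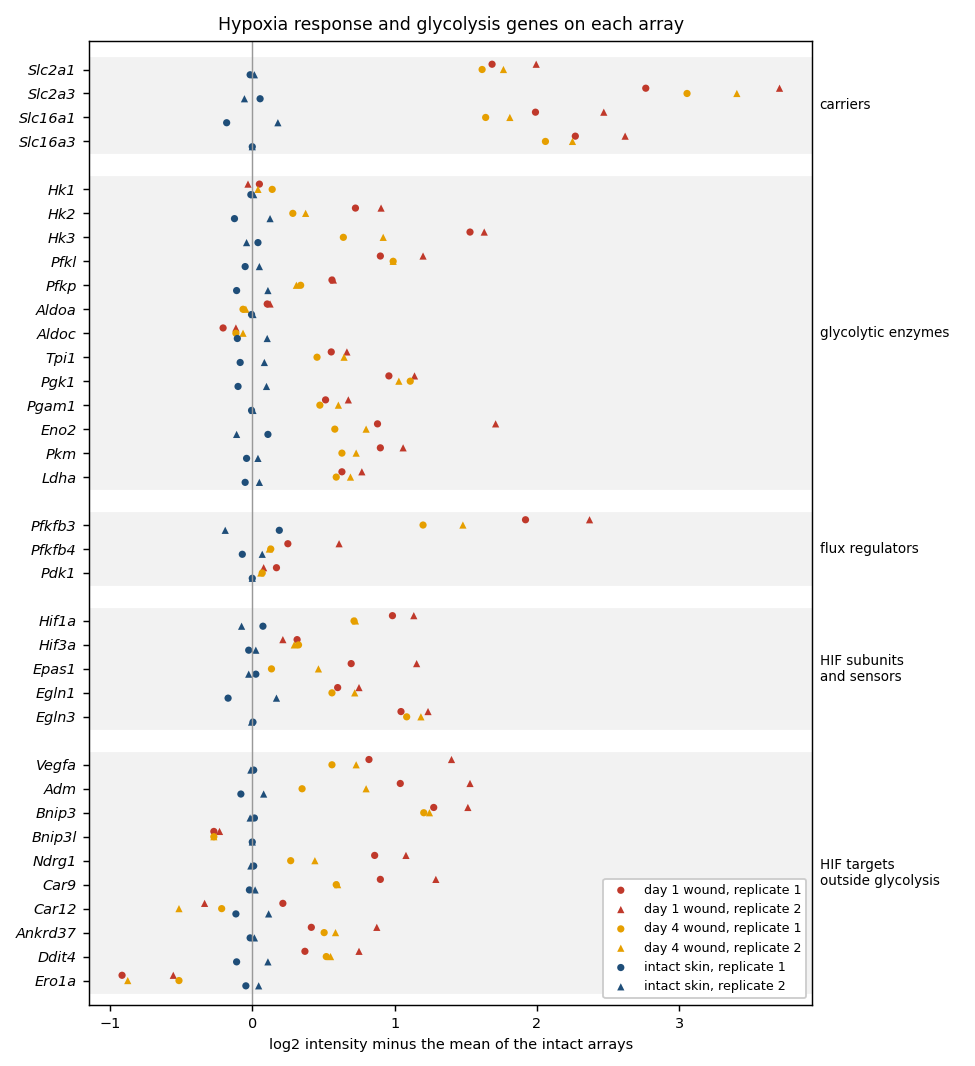
Log2 intensity of each of the 35 genes on the 6 arrays, minus the mean of the 2 intact arrays, by role. Colours stand for day 1 wounds, day 4 wounds and intact skin, circles for replicate 1 and triangles for replicate 2, and for 30 genes both day 1 points lie above both intact points.

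The carriers of glucose and lactate had the largest median change of the 5 roles on both days. All 4 were higher on each day, where 14.7% of all genes rose on day 1 and 14.8% on day 4. Their median change was 2.34 on day 1 and 1.94 on day 4 (log2). Values of single arrays, here and below, are log2 intensities. Slc2a3, the high-affinity glucose transporter GLUT3, which leukocytes and neurons use, had log2 intensities of 8.90 and 9.84 on day 1, 9.19 and 9.54 on day 4, and 6.19 and 6.08 in intact skin. Every wound array was thus far above both intact arrays, by 9.42-fold on day 1 (log2 3.24, SE 0.29, adjusted p = 0.000617) and 9.38-fold on day 4 (adjusted p = 0.000898). The difference between day 4 and day 1 was −0.005, with a 95% interval of −0.70 to 0.69.

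Slc2a1, the basal glucose transporter GLUT1, had 11.67 and 11.98 on day 1, 11.60 and 11.75 on day 4, and 9.97 and 10.00 in intact skin. It was 3.58-fold higher on day 1 (log2 1.84, SE 0.12, adjusted p = 0.000192) and 3.23-fold higher on day 4, and the wound groups overlapped. The lactate exporter MCT4 is encoded by Slc16a3, a classical HIF target in strongly glycolytic cells. Its log2 intensities were 10.23 and 10.58 on day 1, 10.02 and 10.21 on day 4, and 7.96 on both arrays of intact skin. This made it 5.45-fold higher on day 1 (log2 2.45, SE 0.13, adjusted p = 0.000103) and 4.45-fold higher on day 4 (adjusted p = 0.00027). Slc16a1 encodes MCT1, which carries lactate in either direction, and stood at 9.89 and 10.37 on day 1, 9.54 and 9.71 on day 4, and 7.72 and 8.08 in intact skin. It was 4.69-fold higher on day 1 and 3.31-fold higher on day 4, and its day 4 arrays were both below its day 1 arrays, as were those of Slc16a3, without passing the test (adjusted p = 0.217 and 0.295).

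Of the 13 glycolytic enzymes 10 rose on day 1 and 8 on day 4, where 14.7% and 14.8% of all genes rose. Their median changes were 0.70 and 0.55 (log2). By limma 0 of them were called lower on either day, where 14.6% and 12.1% of all genes fell. At an unadjusted p under 0.05 also 0 were lower, against 21.9% and 19.8% of all genes. Their changes were smaller than those of the carriers. The first step, phosphorylation of glucose, is made by hexokinases, and the 3 measured here differed. Hk3, the hexokinase of myeloid cells, had 7.57 and 7.67 on day 1, 6.68 and 6.96 on day 4, and 6.08 and 6.00 in intact skin. The groups formed 3 separate steps: Hk3 was 2.99-fold higher on day 1 (log2 1.58, SE 0.11, adjusted p = 0.000254) and 1.72-fold higher on day 4 (adjusted p = 0.00387).

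Hk2, the inducible hexokinase of muscle, fat and tumours, stood at 8.97 and 9.15 on day 1, 8.53 and 8.62 on day 4, and 8.12 and 8.37 in intact skin. It rose 1.76-fold on day 1 (adjusted p = 0.00293), and the 1.26-fold difference on day 4 did not pass (adjusted p = 0.0757). For Hk1, the hexokinase found in most tissues, the brightest probe set read 12.08 and 12.00 on day 1, 12.17 and 12.07 on day 4, and 12.02 and 12.04 in intact skin. Its day 1 difference of 0.01 had a 95% interval of −0.18 to 0.20. That probe set rests on 1 accession which 16 further probe sets also list, all 16 of them together with Rpl17, a ribosomal protein gene. The second Hk1 probe set, on RefSeq transcripts of Hk1, read 9.12 and 9.39 on day 1, 8.94 and 9.13 on day 4, and 8.61 and 8.67 in intact skin. Taken for the gene, it made Hk1 1.53-fold higher on day 1 (adjusted p = 0.00935) and 1.31-fold higher on day 4 (adjusted p = 0.0485), so the call for Hk1 depends on the probe set.

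Phosphofructokinase commits sugar to glycolysis. The liver-type subunit Pfkl had 9.06 and 9.36 on day 1, 9.15 on both arrays of day 4, and 8.11 and 8.21 in intact skin, a 2.07-fold rise on day 1 (adjusted p = 0.00109) and a 1.99-fold rise on day 4 (adjusted p = 0.00184). The platelet-type Pfkp rose less, 1.48-fold on day 1 and 1.25-fold on day 4. Aldolases split the sugar, and neither of the 2 measured passed on either day. Aldoa had 12.66 and 12.68 on day 1, 12.49 and 12.51 on day 4, and 12.55 and 12.56 in intact skin, with a 95% interval of the day 1 difference of −0.05 to 0.28 (log2). Aldoc differed by −0.16 on day 1, with an interval of −0.39 to 0.07.

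The later steps yield ATP and end in lactate. Pgk1, phosphoglycerate kinase, had 11.29 and 11.47 on day 1, 11.44 and 11.36 on day 4, and 10.23 and 10.43 in intact skin. It was 2.07-fold higher on day 1 (log2 1.05, SE 0.10, adjusted p = 0.000854) and 2.1-fold higher on day 4 (adjusted p = 0.00113), and its 3 probe sets read nearly alike, 2 of them with the same values, so that copies of similar sequence could not be told apart. The same holds for Pgam1, of which 2 further probe sets had the same values as each other. Triose phosphate isomerase (Tpi1) rose 1.53-fold on day 1 and 1.46-fold on day 4, and phosphoglycerate mutase (Pgam1) 1.51-fold and 1.45-fold. Pyruvate kinase, Pkm, stood at 11.54 and 11.70 on day 1, 11.27 and 11.37 on day 4, and 10.60 and 10.68 in intact skin, 1.97-fold higher on day 1 (adjusted p = 0.000639) and 1.60-fold higher on day 4 (adjusted p = 0.00303). Ldha, the lactate dehydrogenase subunit that favours lactate formation, had 12.11 and 12.25 on day 1, 12.07 and 12.17 on day 4, and 11.43 and 11.53 in intact skin. It rose 1.62-fold on day 1 (adjusted p = 0.00203) and 1.56-fold on day 4 (adjusted p = 0.00356).

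Eno2, the enolase of neurons, had the widest gap between day 1 replicates among the enzymes. It read 7.52 and 8.35 on day 1, 7.22 and 7.44 on day 4, and 6.75 and 6.53 in intact skin, a 2.45-fold rise on day 1 (log2 1.30, SE 0.26, adjusted p = 0.0113) and a 1.61-fold difference on day 4 that did not pass (adjusted p = 0.0965), and that passed without either day 1 array (0.0166 each). Single arrays decide some of the weaker enzyme calls. The day 1 rise of Eno2 did not pass without intact replicate 1 (adjusted p = 0.0544) or 2 (0.0775), and on day 4 Pgam1 did not pass without intact replicate 1 (0.0542), Tpi1 without that array (0.0778) or day 4 replicate 2 (0.0582), and Pfkp without each of 5 single arrays (0.0722 to 0.198), with cyclic loess (0.0546) or with median centring (0.0558).

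**Figure D2:**
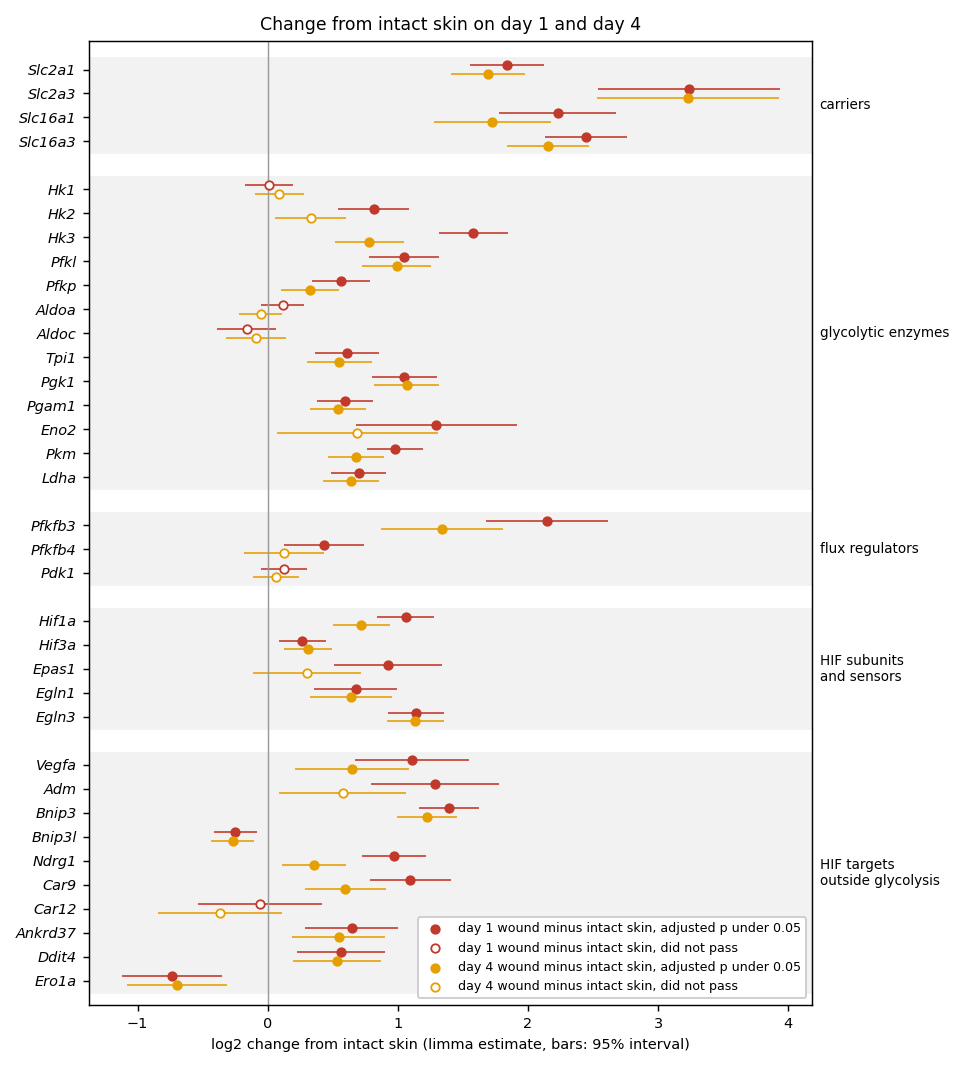
Log2 change from intact skin of the 35 genes in day 1 and day 4 wounds, by role, with points at the limma estimate and bars for the 95% interval. The carrier Slc2a3 lies farthest to the right on both days, and Bnip3l and Ero1a are the genes that passed the test on the lower side on both days.

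Of the 3 regulators of flux, Pfkfb3 changed most. It makes fructose 2,6-bisphosphate, the strongest activator of phosphofructokinase. Its log2 intensities were 9.49 and 9.94 on day 1, 8.77 and 9.05 on day 4, and 7.76 and 7.38 in intact skin, and the groups did not overlap. Pfkfb3 was 4.42-fold higher on day 1 (log2 2.15, SE 0.19, adjusted p = 0.000639) and 2.53-fold higher on day 4 (adjusted p = 0.00438). The related Pfkfb4 had 8.22 and 8.58 on day 1, 8.10 and 8.09 on day 4, and 7.90 and 8.04 in intact skin, a 1.35-fold rise on day 1 (adjusted p = 0.0474) that no longer passed without day 1 replicate 2 (0.172), either day 4 array (0.0742) or intact replicate 1 (0.218) or 2 (0.104). Pdk1, which shuts pyruvate out of the mitochondrial cycle and is a classical HIF target, read 8.47 and 8.38 on day 1, 8.37 and 8.36 on day 4, and 8.30 on both intact arrays. The difference of 0.13 on day 1 had a 95% interval of −0.05 to 0.30 and did not pass (adjusted p = 0.248).

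All 5 genes of HIF subunits and oxygen sensors were higher on day 1 and 4 of them on day 4. Over all genes 14.7% and 14.8% rose on these days. The median changes of the 5 were 0.93 and 0.64 (log2). Hif1a, the alpha subunit named for this response, had 11.43 and 11.58 on day 1, 11.16 and 11.17 on day 4, and 10.52 and 10.37 in intact skin. It rose 2.08-fold on day 1 (log2 1.06, SE 0.090, adjusted p = 0.000515) and 1.65-fold on day 4 (adjusted p = 0.00263). HIF activity is set largely by protein stability, which the arrays do not measure. Epas1, the HIF-2 alpha subunit with high levels in endothelium, had 10.40 and 10.86 on day 1, 9.84 and 10.17 on day 4, and 9.73 and 9.68 in intact skin. It was 1.90-fold higher on day 1 (adjusted p = 0.00911), and its day 4 difference of 0.30 had an interval of −0.12 to 0.72.

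Egln3 encodes the prolyl hydroxylase PHD3, itself a HIF target. It had 11.27 and 11.46 on day 1, 11.31 and 11.41 on day 4, and 10.23 and 10.22 in intact skin, 2.20-fold higher on both days (adjusted p = 0.000405 on day 1 and 0.00062 on day 4). Between the days it differed by −0.005, with an interval of −0.22 to 0.21. Egln1, the main oxygen sensor PHD2, stood at 9.44 and 9.59 on day 1, 9.40 and 9.56 on day 4, and 8.67 and 9.01 in intact skin, a rise of 1.60-fold and 1.56-fold on the 2 days. Hif3a, an alpha subunit with forms that hold back the others, rose by 1.20-fold on day 1 (adjusted p = 0.0413) and 1.24-fold on day 4 (adjusted p = 0.0265) at log2 intensities of 5.53 to 5.88. Its day 1 call was lost without any single array (adjusted p = 0.0582 to 0.177), that of Epas1 without intact replicate 1 (0.0568) or 2 (0.0616), and that of Egln1 without day 1 replicate 2 (0.0741) or intact replicate 1 (0.0548). On day 4 Hif3a did not pass without any 1 of the 4 arrays compared (0.0818 to 0.135), nor Egln1 without day 4 replicate 2 (0.0824) or intact replicate 1 (0.0758).

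The 10 HIF targets outside glycolysis were the only role with genes called lower than in intact skin. On day 1, 7 rose, 2 fell and 1 did not pass, where 14.7% of all genes rose and 14.6% fell. On day 4, 6 rose, 2 fell and 2 did not pass, where 14.8% of all genes rose and 12.1% fell. The median changes were 0.81 and 0.54 (log2). Bnip3, a mitochondrial protein that marks mitochondria for removal, had 10.36 and 10.60 on day 1, 10.29 and 10.33 on day 4, and 9.10 and 9.07 in intact skin. It was 2.63-fold higher on day 1 (log2 1.40, SE 0.10, adjusted p = 0.000251) and 2.34-fold higher on day 4 (adjusted p = 0.000593), and a second probe set gave log2 changes of 1.21 and 0.99. Its relative Bnip3l, which has the same role in maturing red cells, fell, with 12.28 and 12.32 on day 1, 12.28 on both arrays of day 4, and 12.55 on both intact arrays. The fall was small, 1.19-fold on day 1 (adjusted p = 0.0373) and 1.21-fold on day 4 (adjusted p = 0.031), with a second probe set at −0.27 and −0.28 (log2). On day 1 it was lost without any single array (0.0526 to 0.14), and with quantile normalization on day 1 (0.0757) and day 4 (0.0546).

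The angiogenic factor Vegfa had 9.48 and 10.06 on day 1, 9.22 and 9.39 on day 4, and 8.67 and 8.65 in intact skin. It was 2.16-fold higher on day 1 (log2 1.11, SE 0.18, adjusted p = 0.00558) and 1.56-fold higher on day 4 (adjusted p = 0.0429). Adm, the vasodilator peptide adrenomedullin, had 8.69 and 9.18 on day 1, 8.00 and 8.45 on day 4, and 7.57 and 7.73 in intact skin. It rose 2.44-fold on day 1 (adjusted p = 0.00482), and the 1.49-fold difference on day 4 did not pass (adjusted p = 0.0834). Ndrg1, a growth-arrest and differentiation gene induced by hypoxia, read 11.48 and 11.70 on day 1, 10.89 and 11.06 on day 4, and 10.63 and 10.61 in intact skin, 1.96-fold higher on day 1 (adjusted p = 0.0011) and 1.28-fold higher on day 4 (adjusted p = 0.0474). All 4 wound arrays were above intact skin for each of these 3 genes.

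Carbonic anhydrases that hydrate CO2 at the cell surface differed from each other. Car9, often used as a marker of hypoxic tissue, had 6.90 and 7.29 on day 1, 6.59 and 6.60 on day 4, and 5.98 and 6.02 in intact skin, 2.14-fold higher on day 1 (log2 1.10, adjusted p = 0.00161) and 1.51-fold higher on day 4 (adjusted p = 0.0182). Car12 had 10.88 and 10.33 on day 1, 10.45 and 10.15 on day 4, and 10.55 and 10.78 in intact skin. Its day 1 arrays lay on either side of the intact ones, and the difference of −0.06 had an interval of −0.54 to 0.42. Ankrd37, a HIF target of unsettled function, rose 1.56-fold on day 1 and 1.46-fold on day 4, and Ddit4, which restrains the growth kinase mTORC1, 1.47-fold and 1.45-fold.

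Ero1a, the oxidase that forms disulphide bonds in the endoplasmic reticulum, fell. It had 10.30 and 10.66 on day 1, 10.70 and 10.34 on day 4, and 11.17 and 11.26 in intact skin. All 4 wound arrays were below both intact arrays, by 1.66-fold on day 1 (log2 −0.74, SE 0.16, adjusted p = 0.016) and 1.62-fold on day 4 (adjusted p = 0.0223). The call was lost on day 1 without day 1 replicate 1 (adjusted p = 0.0738) or intact replicate 1 (0.0741) or 2 (0.0923), and on day 4 without day 4 replicate 2 (0.1) or intact replicate 1 (0.0954) or 2 (0.113). On day 1 Ankrd37 did not pass without intact replicate 1 (0.104) or 2 (0.0871), nor Ddit4 without day 1 replicate 2 (0.109) or intact replicate 1 (0.153) or 2 (0.0587). On day 4 Vegfa, Bnip3l, Ndrg1, Car9, Ankrd37 and Ddit4 each failed to pass when any 1 of the 4 arrays compared was left out (0.0567 to 0.194), and Ndrg1 also under 3 other scalings (0.0556 to 0.0769).

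The glycolytic enzymes and the HIF targets outside glycolysis were then set side by side over the groups. Relative to the intact mean, the median of the 13 enzymes was 0.63 and 0.77 on the day 1 arrays, 0.48 and 0.65 on the day 4 arrays, and −0.05 and 0.05 on the intact arrays (log2). The median of the 10 HIF targets was 0.62 and 0.98 on the day 1 arrays and 0.43 and 0.57 on the day 4 arrays. Both medians were above intact skin on all 4 wound arrays, and they were in the same range. Summed linear intensities, in which bright genes weigh most, differed. The enzymes summed to 27695 and 29452 on day 1, 26318 and 26930 on day 4, and 20165 and 21126 in intact skin. Their medians and sums include the brightest Hk1 probe set, at 12.02 and 12.04 in intact skin, whose link to Rpl17 is given above. The HIF targets summed to 14171 and 15538 on day 1, 12833 and 12665 on day 4, and 13053 and 13508 in intact skin. The day 4 sums of the HIF targets were thus below those of intact skin. The brightest of these genes, Bnip3l, weighs most in them, with 12.28 on both day 4 arrays and 12.55 on both intact arrays. Sums without Bnip3l were not computed, and 6 of the 10 HIF targets rose on day 4. On day 1 the changes of single enzymes ran between −0.16 (Aldoc) and 1.58 (Hk3), and those of single HIF targets between −0.74 (Ero1a) and 1.40 (Bnip3). The difference between the lists was not tested.

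**Figure D3:**
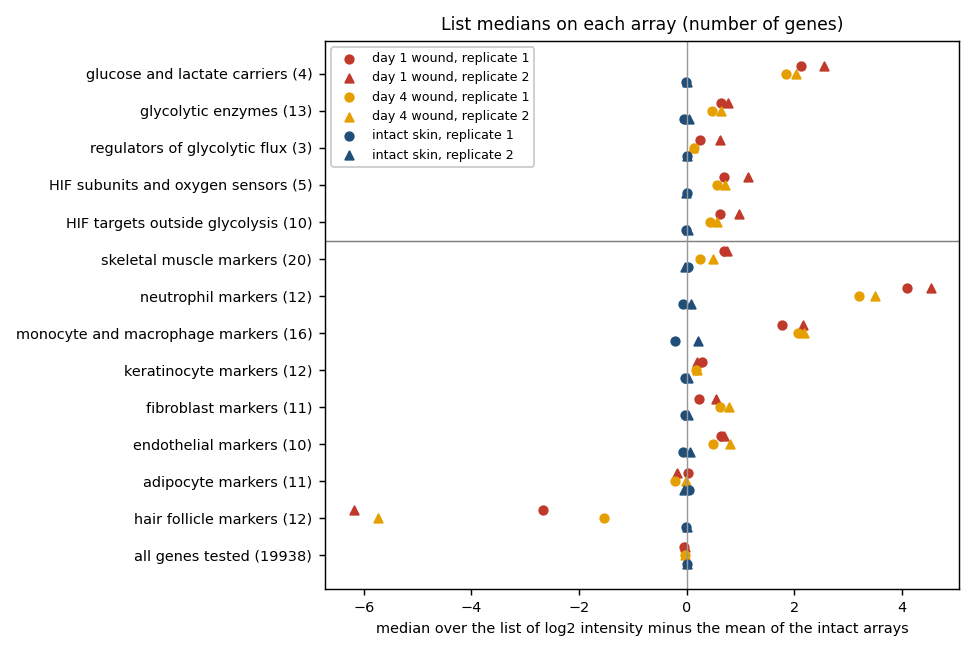
Median log2 level relative to the intact mean, for each role (above the line) and for marker lists of cell types and all genes (below it) on each of the 6 arrays. The carriers are at 1.85 or more on all 4 wound arrays, while the enzymes and the HIF targets lie between 0.43 and 0.98 there.

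Between day 4 and day 1 wounds 33 of the 35 genes did not pass the test, and most estimates were lower on day 4. limma called 0 of the 35 higher and 2 lower at the adjusted threshold, where 1.09% of all genes rose and 1.14% fell. At an unadjusted p under 0.05 the counts were 0 higher and 13 lower, where 10.1% of all genes were higher and 8.77% lower. The median difference was −0.17 (log2), against 0.01 for all genes, and 30 of the 35 estimates were below 0, which was the case for 47.5% of all genes. This count depends on single arrays. Without day 1 replicate 2, 10 of the 35 estimates changed sign, and without day 4 replicate 1, 7 did. Without day 1 replicate 1 it was 2, and without day 4 replicate 2 it was 0. Both day 4 arrays were below both day 1 arrays for 18 of the 35, where 22% of all genes showed this. The reverse held for 0 of the 35, against 25.6% of all genes.

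The 2 that fell were Hk3 and Ndrg1. Hk3 averaged 6.82 ± 0.20 in day 4 wounds and 7.62 ± 0.07 in day 1 wounds (SD, n = 2 each), 1.74-fold lower on day 4 (log2 −0.80, SE 0.11, adjusted p = 0.0315). Ndrg1 averaged 10.98 ± 0.12 in day 4 wounds and 11.59 ± 0.16 in day 1 wounds (SD, n = 2 each), 1.53-fold lower on day 4 (log2 −0.62, SE 0.10, adjusted p = 0.0446). Both calls depend on single arrays: Hk3 did not pass without day 1 replicate 1 (adjusted p = 0.0866) or 2 (0.171), day 4 replicate 1 (0.108) or either intact array (0.0933), and Ndrg1 did not pass without any single array (0.0755 to 0.196). Pfkfb3 had as large a difference as Hk3, −0.81, and did not pass (adjusted p = 0.0959), nor did Adm at −0.71 (0.136), Epas1 at −0.63 (0.128) or Eno2 at −0.61 (0.273). By contrast the estimates for Pgk1, Ldha, Egln1, Egln3 and Slc2a3 lay between −0.06 and 0.02.

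**Figure D4:**
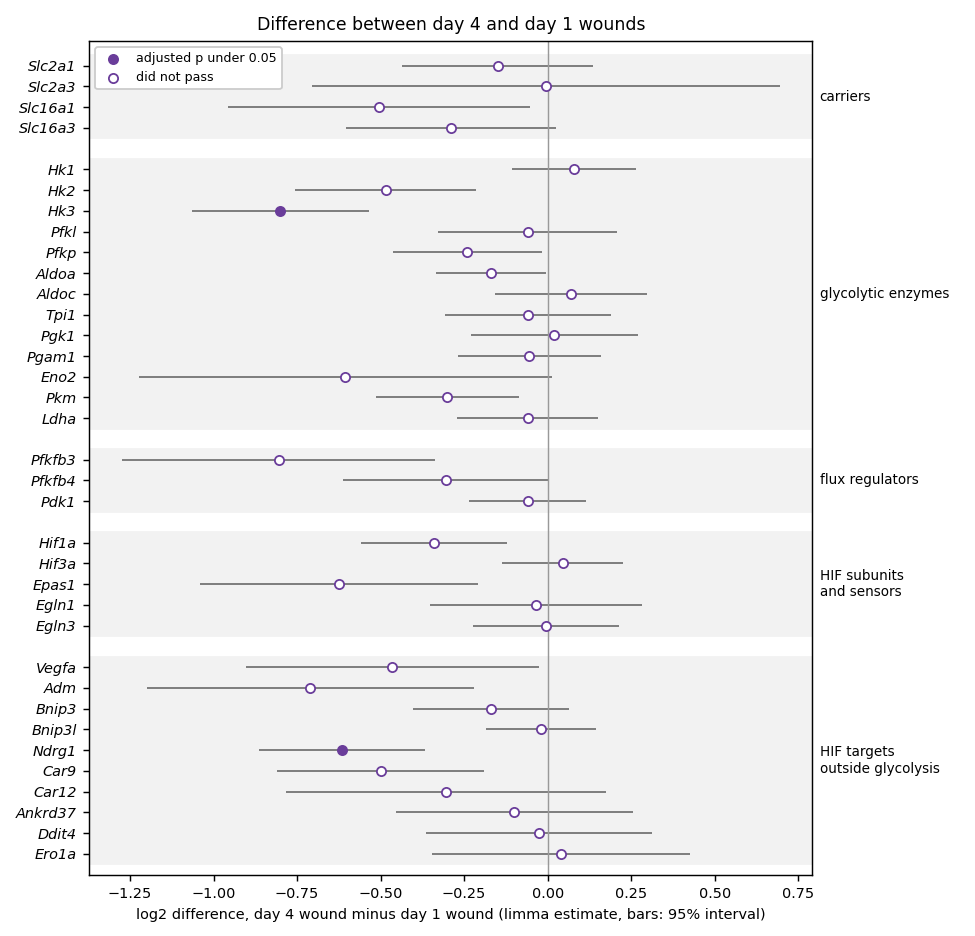
Log2 difference of day 4 minus day 1 wounds for the 35 genes, with points at the limma estimate, bars for the 95% interval and the 2 genes that passed the test marked. Of the 35 estimates 30 lie below 0, and Hk3 and Ndrg1 passed the test.

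Genes of the same pathways outside the 35 were examined next. Of 26 further glycolysis genes 21 were measured. On day 1, 4 rose and 5 fell, where 14.7% of all genes rose and 14.6% fell. The median change was −0.03 (log2), against −0.04 for all genes. Those that rose were Pdk4, a pyruvate dehydrogenase kinase of fasting and fat use (3.63-fold, adjusted p = 0.00163), the phosphoglucomutase Pgm1 (1.82-fold), and the muscle forms of mutase and enolase, Pgam2 (1.80-fold) and Eno3 (1.46-fold). Those that fell were Slc16a7, the monocarboxylate carrier MCT2 (5.43-fold lower, adjusted p = 0.000919), Bpgm, which makes 2,3-bisphosphoglycerate (2.46-fold lower), Pgm2 (2.37-fold lower), Pfkfb2 (1.46-fold lower) and Pdk3 (1.33-fold lower). On day 4, Pgm1 (1.72-fold) and Eno3 (1.25-fold) were higher and the same 5 genes were lower, Slc16a7 by 2.83-fold and Pgm2 by 2.74-fold. Of all genes 14.8% rose and 12.1% fell on day 4. Between day 4 and day 1, limma called 0 of the 21 in either direction. At an unadjusted p under 0.05, 2 were higher and 4 lower, where 10.1% of all genes were higher and 8.77% lower. Without intact replicate 1 or 2 the day 4 calls of Slc16a7 (adjusted p = 0.0532 and 0.0512) and Eno3 (0.134 and 0.0877) were lost, that of Eno3 also without day 4 replicate 2 (0.113), and Pdk3 did not pass without intact replicate 2 on day 1 (0.0842) or day 4 (0.0617), nor on day 1 without day 1 replicate 1 (0.0636) or intact replicate 1 (0.0556).

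Of 35 further genes of the hypoxia pathway 34 were measured. On day 1, 18 rose and 4 fell, where 14.7% of all genes rose and 14.6% fell, with a median of 0.36 (log2). On day 4, 14 rose and 2 fell, where 14.8% of all genes rose and 12.1% fell, with a median of 0.28 (log2). The 5 with the smallest p among those that rose on day 1 were the inducible nitric oxide synthase Nos2 (12.6-fold, adjusted p = 0.000115), the mitochondrial HIF target Fam162a (2.39-fold), the VEGF receptor Flt1 (2.07-fold), the collagen prolyl hydroxylase subunit P4ha1 (2.37-fold) and the adenylate kinase Ak4 (1.80-fold). Those that fell on day 1 were the collagen lysyl hydroxylase Plod2 (1.78-fold lower), the sterol regulator Insig2 (1.95-fold lower), the transferrin receptor Tfrc (1.31-fold lower) and the chemokine Cxcl12 (1.19-fold lower). On day 4 Fam162a (2.82-fold), P4ha1 (2.42-fold), Nos2 (4.33-fold), the second collagen hydroxylase subunit P4ha2 (1.98-fold) and the ubiquitin ligase subunit Wsb1 (1.97-fold) led those that rose, and Tfrc and Cxcl12 fell. Day 4 differed from day 1 for Nos2, 2.92-fold lower on day 4 (adjusted p = 0.0291), and for Plod2, higher by 0.74 (log2) on day 4 (adjusted p = 0.0223). These calls depend on single arrays: Plod2 did not pass when any 1 of the 6 was left out (0.0625 to 0.108), and Nos2 passed only without day 1 replicate 1 (0.0561 to 0.119 without the others). On day 1 Cxcl12 was lost without any 1 of the 4 arrays compared (0.122 to 0.153), Tfrc without day 1 replicate 1 (0.0667) or intact replicate 1 (0.0901) and Insig2 without intact replicate 2 (0.0512). On day 4 Tfrc was lost without any 1 of the 4 arrays compared (0.0537 to 0.136) and Cxcl12 without day 4 replicate 2 (0.119) or intact replicate 1 (0.115) or 2 (0.119), and 9 of the further hypoxia genes rose without intact replicate 1.

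Markers of other cell types moved in the same biopsies. Of 12 neutrophil markers 11 were higher on each day and 5 were lower on day 4 than on day 1, and their summed linear intensity was 20023 and 26596 on day 1, 10238 and 12633 on day 4, and 1499 and 1668 in intact skin. All 16 monocyte and macrophage markers were higher on both days, with sums of 18895 and 22379 on day 1, 20574 and 21356 on day 4, and 4763 and 6025 in intact skin. In intact skin 3 and 2 of the 12 neutrophil markers were below the lower quartile of the array. Of 20 skeletal muscle markers 16 were higher on day 1 and 10 on day 4, with sums of 42244 and 43670 on day 1, 30098 and 35983 on day 4, and 26016 and 25420 in intact skin. Of 10 endothelial markers 7 were higher on day 1 and 8 on day 4, and of 12 keratinocyte markers 5 on each day. Of 11 fibroblast markers 5 were higher and 1 lower on day 1, and 7 and 1 on day 4. Of 11 adipocyte markers 2 were higher and 3 lower on day 1, and 0 and 3 on day 4. Of 12 hair follicle markers 8 were lower on day 1 and 4 on day 4. Over all genes 14.7% rose and 14.6% fell on day 1, and 14.8% and 12.1% on day 4. Between day 4 and day 1, 1.09% rose and 1.14% fell. The sums of the neutrophil and muscle lists were highest on day 1 and lowest in intact skin. Of the 35 genes, 30 also had a lower estimate on day 4 than on day 1, so this order is not particular to single genes. The part of these cells in the results was not tested.

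The promoter windows printed above belong to a wider set. RefSeq windows were used for 31 of the 35 genes, 40 windows in all, and not for Slc2a3, Epas1, Bnip3l and Ndrg1. An ACGTG or GCGTG core stood in 32 of the 40 windows, 80%, against 43.8% of the 32851 windows of all genes. Windows of these genes were richer in G and C, with a median GC content of 63.5% against 52.7% for all windows, and the part of base composition in this share was not tested. By role, at least 1 core was found for 3 of 3 carriers, 11 of 13 enzymes, 3 of 3 flux regulators, 4 of 4 subunits and sensors, and 7 of 8 HIF targets. These are counts of genes with a core in any window, which held for 46.7% of all genes with a window. Hk1, Aldoa, Pkm, Pdk1 and Vegfa also had a window without a core. For Vegfa the window at chr17:46025114-46025413 held 2 cores and that at chr17:46032328-46032627 held 0. A match is a string of letters and not a bound site.

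The number of cores differed between single promoters. Ldha had 7 cores in its first window, with 2 CACGTG palindromes that begin 145 and 48 bases before the start, and rose 1.62-fold on day 1. Slc16a3 had 2 cores, 27 and 14 bases before the start, and rose 5.45-fold. Bnip3 had 5 cores and Car9 had 1, 18 bases before the start on the other strand. Ero1a, which fell, had 3, while Eno2 and Tpi1, which rose on day 1, and Car12, which did not pass, had no core in these windows. Of the 25 genes with a window that rose on day 1, 23 had a core, as had 4 of the 5 that did not pass.

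**Figure D5:**
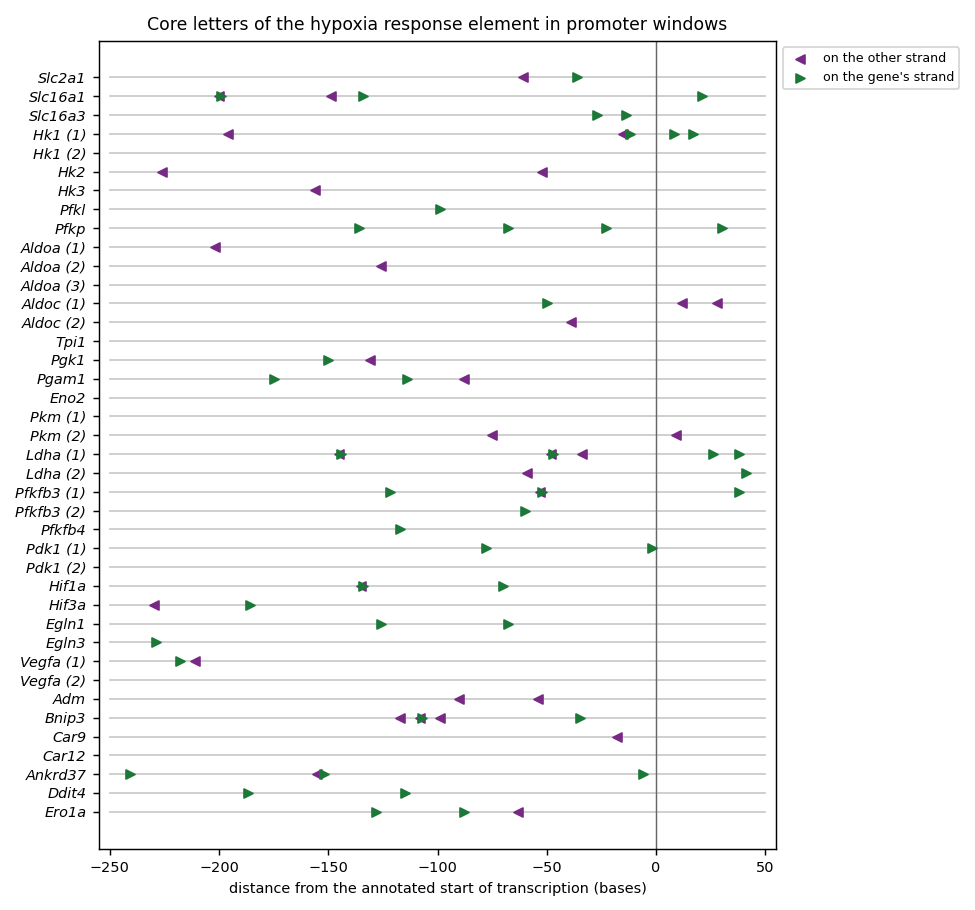
Position of each ACGTG or GCGTG core in the promoter windows of the 31 genes, in bases from the annotated transcript start. Tpi1, Eno2 and Car12 have no mark, and windows of a gene with several starts are numbered.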

How the data were processed

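RNA of 6 skin samples (2 day 1 wounds, 2 day 4 wounds, 2 intact skin) was measured on 1-colour Affymetrix arrays. The deposited values are log2 intensities of 35556 probe sets, which the submitters' processing notes credit to RMA (version not given in the sources used here). RMA equalises the arrays' distributions, so changes are relative to the other genes. The values were used as deposited. Of the probe sets 21789 carried a single symbol in the array annotation, 1621 with several symbols were not used, nor were 12146 unnamed ones. Listed names were matched through a RefSeq table, and the brightest probe set stood for each of 19938 genes.

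The main test was limma 3.58.1 (R 4.3.3), fitted to all 6 arrays with a mean per group and eBayes (3 residual and 3.4 prior degrees of freedom). Two-sided p-values were adjusted over all genes by Benjamini-Hochberg and called under 0.05. The fit was tested on simulated data. Alternatives were 3 further normalizations, changes to the prior, the 2 compared groups alone, removal of the dimmest 30% of genes, other rules for probe sets, the replicate number as a block and leaving out each array. The members and gene lists were chosen with earlier results of these data known. All 35 members were described by role, and of the further pathway genes up to 5 per direction and comparison with the smallest p were named. RefSeq promoter windows came from GRCm38.p6. The number of arrays limits the precision.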

Additional observations from a re-analysis of the deposited data

Results flagged for a closer look

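Among the 35 genes the difference between day 4 and day 1 wounds passed the main test for Hk3 and Ndrg1. With only the 2 groups compared neither passed (limma, adjusted p = 0.0933 for Hk3 and 0.112 for Ndrg1), and both calls depend on single arrays. The log2 difference of day 4 minus day 1 was −0.80 for Hk3 and −0.62 for Ndrg1. Neutrophil markers had summed linear intensities of 10238 and 12633 in day 4 wounds and 20023 and 26596 in day 1 wounds. Skeletal muscle markers summed to 30098 and 35983 on day 4 and to 42244 and 43670 on day 1. For monocyte and macrophage markers the sums were 20574 and 21356 on day 4 and 18895 and 22379 on day 1. The part of these cells in the result was not tested.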

How the results depend on the processing

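Counts of calls, medians of the enzymes and HIF targets, and the changes of the 35 genes and of further pathway genes that passed were recomputed under 16 alternatives (15 for Hif3a, which the removal of dim genes left out), 1 of which, the brightest probe set with a RefSeq transcript, was chosen after seeing the data. No gene that passed the test changed sign. The count of the 35 genes higher on day 4 than in intact skin was 13 to 23 when 1 array was left out, and that on day 1 was 21 to 27. The genes lower on day 1 numbered 1 with quantile normalization, 1 with only the 2 groups compared and 0 to 1 without 1 array, and those lower on day 4 numbered 1 with quantile normalization and 0 to 2 without 1 array. The genes lower on day 4 than on day 1 numbered 0 with only the 2 groups compared and 0 to 1 without 1 array. Medians of the HIF targets without 1 array were 0.62 to 0.98 on day 1, 0.43 to 0.59 on day 4 and −0.31 to −0.11 between the days, and the value of 0.43 came without day 4 replicate 2. With 1 array left out, 21 of the 30 day 1 calls and 13 of the 25 day 4 calls passed every time. Replicate numbers pair no samples in the labels. Same-numbered deviations correlated with r = 0.685 between day 1 and day 4, 0.0139 between day 1 and intact and 0.0227 between day 4 and intact. With the replicate number as a block, 4 genes were lower on day 4 than on day 1, namely Hk2, Hk3, Adm and Ndrg1. The block also made Hk2 (adjusted p = 0.031) and Adm (0.0137) pass on day 4 against intact skin, and ended the day 1 calls of Hif3a (0.0536) and Cxcl12 (0.0566). Further hypoxia genes lower on day 4 than on day 1 numbered 3 with the block or cyclic loess, 2 with quantile normalization, median centring, a mean-variance trend or a robust prior, 0 with only the 2 groups compared and 0 to 1 without 1 array, and those higher numbered 0 with only the 2 groups compared and 0 without 1 array. Further glycolysis genes lower on day 4 than on day 1 numbered 1 with the trend or robust prior. Against intact skin, leaving out 1 array gave 1 to 3 higher and 3 to 5 lower further glycolysis genes on day 4, and 9 to 16 higher and 0 to 2 lower further hypoxia genes on day 4, with 2 to 4 lower on day 1. Marker and promoter counts were not recomputed. Where a call was lost, the cause was not tested, and fits without 1 array also had fewer arrays. The 2 arrays a group limit the precision of every value.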
